A study of Homo sapiens with 8 samples.

Results

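The inflammatory cytokine genes of hepatic stellate cells described here were IL6, IL11, LIF, IL1B, CCL2, CCL5, CXCL1, CXCL2, CXCL8 and CXCL12. These 10 genes, of 20163 protein-coding genes in the annotation, were chosen by name, as secreted inflammatory products of stellate cells, with no threshold on their signal. For each gene, every peak centred in the gene body or within 50 kb on either side was taken. Peaks that overlapped between libraries were joined, and a joined region counted as a site if 2 or more libraries contributed to it, which gave 81 sites of 75501 in the genome.

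The peaks came from ATAC-seq, in which a transposase inserts adapters where chromatin is open, of LX-2, an immortalised human hepatic stellate cell line of wild-type genotype. Cells were seeded on polyacrylamide gels coated with fibronectin, either soft (about 2 kPa, in the range of normal liver) or stiff (about 40 kPa, in the range of cirrhotic liver), and collected on day 2 or day 4. The 4 groups are called D2 soft, D4 soft, D2 stiff and D4 stiff, with 2 libraries each. All groups were of 1 line and had no further treatment. The study's methods call its sequencing replicates biological. The labels tied no library to a separate culture, so any p-value measures the spread between these libraries, which may be partly technical.

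Stellate cells lie between hepatocytes and sinusoidal endothelium, store vitamin A in normal liver and become matrix-producing myofibroblasts after injury. Activated stellate cells also secrete cytokines and chemokines. IL6, IL11 and LIF signal through receptors that share the subunit gp130, IL1B is a leaderless cytokine released from its precursor by proteolysis, and the chemokines attract monocytes (CCL2), T cells (CCL5), neutrophils (CXCL1, CXCL2, CXCL8) or cells carrying CXCR4 (CXCL12). Many of these genes are textbook targets of NF-kappaB, AP-1 and C/EBP factors, which bind short DNA words in promoters and enhancers.

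The sequence just upstream of the start is shown for 5 of the 10 genes, whose promoters differed in the positions of their peaks. They also differed in the words they held, except that CXCL1 and CXCL2 had the same words in the stretch shown. Each run ends at the base before the canonical start and is read 5′ to 3′ on the coding strand of the GRCh37 (hg19) genome. Capitals mark the words searched, on both strands: GGANTTTCC and GGGNTTTCC for NF-kappaB, TGACTCA for AP-1 and TTGCNNAA for C/EBP.
CXCL1 promoter, chr4:74734990-74735109, + strand: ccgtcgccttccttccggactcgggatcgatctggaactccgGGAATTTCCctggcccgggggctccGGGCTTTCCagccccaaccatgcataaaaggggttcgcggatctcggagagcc
CXCL2 promoter, chr4:74964913-74965032, - strand: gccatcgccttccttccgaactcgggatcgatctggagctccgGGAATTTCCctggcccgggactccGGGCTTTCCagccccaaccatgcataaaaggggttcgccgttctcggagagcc
CXCL8 promoter, chr4:74606136-74606285, + strand: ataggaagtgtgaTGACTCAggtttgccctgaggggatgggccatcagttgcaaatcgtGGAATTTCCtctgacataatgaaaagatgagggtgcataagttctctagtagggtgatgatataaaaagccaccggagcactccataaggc
IL6 promoter, chr7:22766699-22766818, + strand: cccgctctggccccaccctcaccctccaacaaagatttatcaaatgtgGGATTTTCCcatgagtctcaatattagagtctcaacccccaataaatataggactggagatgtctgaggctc
IL11 promoter, chr19:55881832-55881951, - strand: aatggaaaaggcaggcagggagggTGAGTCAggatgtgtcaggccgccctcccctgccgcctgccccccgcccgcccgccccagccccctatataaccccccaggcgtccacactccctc

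Words were counted in the promoters of 7 genes, all but LIF, CCL2 and CCL5. Of these, 4 held an NF-kappaB word within 250 bases upstream of the start, against 3.2% of the 19881 promoters examined. In CXCL1 the words lay 78 to 70 and 53 to 45 bases upstream, and CXCL2 had the same 2 words 77 to 69 and 53 to 45 bases upstream. These neighbouring paralogs are alike over the whole stretch, with 77% identity over 300 bases around the start and a longest shared run of 51 bases. The shared words are therefore not independent observations, and reads lying within the shared run could be placed at either gene. The CXCL2 promoter region shared a longer run, of 178 bases, with that of the paralog CXCL3, where the same limit holds. The placement of reads was not tested. The word lay 72 to 64 bases upstream in IL6 and 91 to 83 in CXCL8. The AP-1 word occurred in 2 promoters, IL11 (96 to 90 bases upstream) and CXCL8 (137 to 131), against 3.05% of all promoters. A C/EBP word was found in 3 promoters, those of IL6, IL1B and CXCL2, against 7.11%, and the TEAD word GGAATG in 0 promoters against 9.82%. No 2 of these words overlapped in the promoters. The CXCL12 promoter held none of them in this window. These are matches of letters, and no binding was measured. The promoter shares were not tested, since the genes were chosen as a family in which many are known targets of these factors.

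Of the distal sites that the results turn on, 4 are shown as the 151 bases around the summit of their best peak, on the + strand of GRCh37. The first 2 were among the strongest peaks of their windows, the third differed most in rank between soft and stiff, and the last had a peak in both D2 stiff libraries and in neither D2 soft library. Capitals mark the same words and GGAATG for TEAD. In the CXCL2 site 2 TEAD words share 1 base, and the LIF downstream site held none of the words.
CXCL8 upstream site, chr4:74570411-74570561, + strand: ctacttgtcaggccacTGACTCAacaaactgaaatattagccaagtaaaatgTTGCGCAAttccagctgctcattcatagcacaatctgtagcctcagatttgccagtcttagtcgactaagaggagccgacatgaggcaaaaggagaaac
CXCL2 upstream site, chr4:74975405-74975555, + strand: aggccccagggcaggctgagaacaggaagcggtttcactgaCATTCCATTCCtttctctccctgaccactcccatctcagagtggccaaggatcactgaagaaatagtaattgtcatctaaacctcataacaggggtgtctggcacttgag
LIF downstream site, chr22:30631787-30631937, + strand: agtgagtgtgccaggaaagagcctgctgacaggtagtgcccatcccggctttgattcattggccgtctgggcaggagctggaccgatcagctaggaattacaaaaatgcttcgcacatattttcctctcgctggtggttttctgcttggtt
CXCL1 upstream site, chr4:74710194-74710344, + strand: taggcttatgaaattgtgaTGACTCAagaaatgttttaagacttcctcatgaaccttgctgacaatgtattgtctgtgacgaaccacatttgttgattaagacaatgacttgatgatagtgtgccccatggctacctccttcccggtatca

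Within 100 bases of the summit, the AP-1 word was present at 27 of the 81 sites (33.3%, against 30.2% of all sites), and at 25 of the 58 distal sites (43.1%, against 35.8% of the 58571 distal sites in the genome). The C/EBP word was present at 16 sites (19.8% against 8.74%), the NF-kappaB word at 5 (6.17% against 2.8%) and the TEAD word at 14 (17.3% against 19.1%). Of the distal sites, 2 held the NF-kappaB word (3.45% against 2.86%), and the other sites with it were the CXCL1, CXCL2 and CXCL8 promoters counted above. The C/EBP word was present at 12 distal sites (20.7% against 9.92%) and the TEAD word at 10 (17.2% against 21.5%). These shares were not tested, since the sites of a window are neighbours and the genes were chosen as a family.

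The depth of the libraries moved with the groups. The lists held from 29789 peaks (D2 soft replicate 1) to 72840 peaks (D4 stiff replicate 2), and the fragment density estimated from them was 0.78 per kb in D2 soft replicate 1 and between 2.08 and 3.15 in the other 7 libraries. The lowest summit in a list held 3 to 5 fragments, so a region missing from a list was below the caller's threshold and not shown to be closed. The label of the line was checked on promoter peaks within 1 kb of a start. Of 7 stellate or mesenchymal markers, 5 (PDGFRB, ACTA2, COL1A1, VIM, TAGLN) had one in every library, LRAT had one in 1 library and DES in 0. The hepatocyte genes ALB and APOA1 and the immune genes PTPRC and CD3E had none in any library, TTR and SERPINA1 had one in 2 and 1 libraries, and CD68 in all 8. Of the endothelial markers, CDH5 had one in 4 libraries and TEK in 2, and of the cholangiocyte markers KRT7 had one in 8, EPCAM in 6 and KRT19 in 0. A promoter peak is not expression, and any part of other cell types in the results was not tested.

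All 10 cytokine genes had a promoter peak in at least 1 library. The peak was present in all 8 libraries for 6 of them (IL6, IL11, IL1B, CCL5, CXCL1 and CXCL2), against 47.5% of protein-coding genes. CXCL8 had one in 7 libraries, CCL2 and CXCL12 in 6 and LIF in 3. In these 4 genes the stiff libraries had the peak more often than the soft ones, with 4 against 3 for CXCL8, 4 against 2 for CCL2 and CXCL12, and 3 against 0 for LIF. The share of all protein-coding genes with more stiff than soft libraries was not counted. The deeper libraries were the stiff ones of each day, and when every list was shortened to its 29789 most significant peaks, 2 genes (CXCL1 and CXCL2) had a promoter peak in every library and LIF had none in any. IL6 then had one in 4 soft and 2 stiff lists, CXCL8 and IL1B in 3 soft and 4 stiff, CXCL12 in 0 and 2, CCL2 in 0 and 1, IL11 in 1 and 1 and CCL5 in 1 and 0, so the order of the matrices differed between genes. Strength is given below as the position of a peak in its own list, in percent from the most significant (0) to the least (100), because enrichment can be compared within a list only. Where 2 positions are given for a group, replicate 1 comes first.

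**Figure D1:**
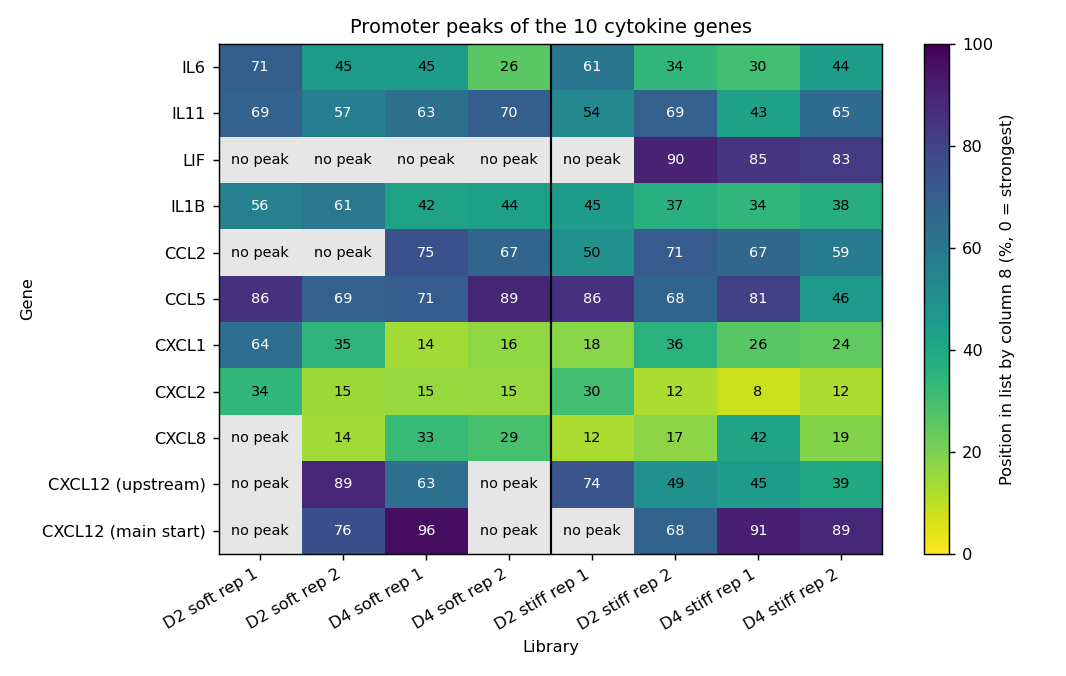
Position of the promoter peak of each gene in the peak list of each library, in percent (0 is the most significant peak of the list), with soft libraries left and stiff libraries right of the line. CXCL2 stood at 8.2 to 33.7% in all 8 libraries, whereas LIF had a peak in 3 stiff libraries only, at 83.2 to 90.4%, and CXCL12 has a row for each of its 2 promoter sites.

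The neutrophil chemokines CXCL1, CXCL2 and CXCL8 had the promoter peaks nearest the top of the lists, with median positions of 25.2, 15 and 18.5%. The CXCL2 promoter peak stood at 33.7 and 14.8% on soft against 30.2 and 12.1% on stiff on day 2, and at 15.2 and 15.3% against 8.2 and 12.2% on day 4. Soft and stiff libraries overlapped, and the least deep library had the weakest position. The CXCL1 promoter peak stood at 64.3 and 34.8% on soft against 17.9 and 36.1% on stiff on day 2, and at 13.8 and 16.5% against 26 and 24.4% on day 4. It was thus strongest in D4 soft, but D2 stiff replicate 1 lay close to that group. The CXCL8 peak was absent from D2 soft replicate 1 and stood at 13.8% in D2 soft replicate 2, at 12.5 and 17.4% on stiff on day 2, and at 32.6 and 29.2% on soft and 41.8 and 18.5% on stiff on day 4. All 4 day 4 libraries stood lower in their lists than the 3 day 2 libraries with a peak, by as little as 18.5 against 17.4%. The share of all sites with this order was not counted. The difference was not tested, since the fit took only sites with a peak in every library.

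CXCL8 and CXCL2 each had a distal site close to the top of every list. The CXCL8 site, 35.7 kb upstream (chr4:74570129-74571120, outside protein-coding genes), stood at 4.2 and 13.8% on soft against 6.5 and 2.72% on stiff on day 2, and at 7.78 and 5.18% against 7.47 and 9.7% on day 4. The CXCL2 site, 10.4 kb upstream (chr4:74974624-74976034), stood at 2.01 and 1.77% on soft against 4.75 and 3.76% on stiff on day 2, and at 2.21 and 0.908% against 2.23 and 3.39% on day 4. Its position was better in each soft than in each stiff library, by as little as 2.21 against 2.23%. Of the 25 cytokine sites with a peak in every library it was the 1 site with this order, which 0.4% of the 24246 such sites in the genome had. Its limma contrasts of stiff minus soft were -0.52 ± 0.48 on day 2 and -0.65 ± 0.48 on day 4 (rank score ± SE, adjusted p = 0.83 and 0.95, limma with Benjamini-Hochberg adjustment over all 24246 sites).

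The other CXC chemokine sites differed between libraries without a call. CXCL1 had a site 33 kb downstream (chr4:74767680-74768517) at 26.3 and 32.5% in D4 soft and at 71.1 and 51.7% in D4 stiff. The D2 libraries stood at 61.1 and 50.2% on soft and at 68.8 and 69.3% on stiff, so the ranges of soft and stiff overlapped through D2 soft replicate 1 and D4 stiff replicate 2. The rank score differed on day 4 by -1.29 ± 0.48, stiff minus soft (limma, adjusted p = 0.92). A stronger CXCL1 site 48 kb downstream (chr4:74782796-74783429) stood at 68.6 and 50.7% in D2 soft and at 21.9 to 30.6% in the other 6 libraries. CXCL8 had a site 18.6 kb upstream (chr4:74587349-74587956), which stood at 28.7 to 49.6% in the 4 soft libraries, at 55.9 to 63.4% in 3 stiff libraries and had no peak in D2 stiff replicate 1. The positions on soft and stiff did not overlap there, at a site named after its values were seen. The share of all sites with this order was not counted.

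CXCL12, the ligand of CXCR4 and ACKR3, had 2 promoter sites. At the canonical start (chr10:44879793-44880576) 5 libraries had a peak, at 75.6% in D2 soft replicate 2, 68.1% in D2 stiff replicate 2, 96.4% in D4 soft replicate 1, and 91.2 and 88.8% in D4 stiff. At a second start, with the site centre 1.74 kb upstream (chr10:44882087-44882481), 6 libraries had a peak. It stood at 88.7% in D2 soft replicate 2 and 63.3% in D4 soft replicate 1, at 73.7 and 49.2% in D2 stiff, and at 45 and 39.2% in D4 stiff. The D4 stiff libraries had the strongest peaks, and the peak was missing from D2 soft replicate 1 and D4 soft replicate 2. No site of the CXCL12 window had a peak in every library, and D2 soft replicate 1 had 0 peaks in the window.

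The monocyte chemokine CCL2 was the 1 gene of the 10 whose own promoter had a peak in both D2 stiff libraries and in neither D2 soft library. The site stood at 49.6 and 71.4% in D2 stiff, and on day 4 at 74.7 and 67.2% on soft and 67 and 59.3% on stiff. It was thus absent from the lists on soft on day 2 and present on soft on day 4. A distal site 2.56 kb upstream (chr17:32579274-32580207) had a peak in every library, at 18 and 19.5% on soft against 27.5 and 46.9% on stiff on day 2, and at 23.4 and 20.2% against 16.4 and 12.4% on day 4. Both D2 soft libraries stood above both D2 stiff libraries there, with a rank score of -1.16 ± 0.5 (limma, adjusted p = 0.58). The share of all sites with this order on day 2 was not counted. The CCL5 promoter peak was in every list but low, at 85.6 and 69.5% on soft against 85.7 and 67.6% on stiff on day 2, and at 70.7 and 89.4% against 80.6 and 46.5% on day 4. All 4 groups overlapped there.

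Among the gp130 cytokines, IL6 and IL11 had a promoter peak in every library and LIF did not. The IL6 promoter site (chr7:22765984-22767281), which also covers an annotated start of STEAP1B, stood at 70.6 and 45.3% on soft against 60.7 and 33.7% on stiff on day 2, and at 45 and 25.7% against 30.2 and 44.1% on day 4. Its stiff and soft values overlapped on both days. The site 8.94 kb upstream of IL6 (chr7:22757463-22758302, in an intron of STEAP1B) stood at 21.6 and 23.4% in D4 soft and at 32.2 and 72.1% in D4 stiff, a rank score difference of -1.29 ± 0.56 (limma, adjusted p = 0.92). On day 2 it stood at 54.9 and 60.9% on soft and at 61.2 and 27.8% on stiff. A site in the IL6 gene body 4.17 kb downstream of the start (chr7:22770792-22771195) had a peak in both D4 soft libraries, in neither D2 soft library and in 1 library of each stiff group.

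The IL11 promoter site (chr19:55881142-55882331) stood at 68.7 and 56.9% on soft against 53.7 and 69.3% on stiff on day 2, and at 63 and 69.6% against 42.6 and 64.9% on day 4, with overlap of all groups. The IL11 window is crowded with other genes, and 7 of its 11 sites were promoters of neighbours. The strongest, at the start of KMT5C 31.1 kb downstream (chr19:55850113-55851321), stood at 0.396 to 2.68% in the 8 libraries, and was not assigned to IL11. The site at the RPL28 and TMEM238 starts 15.4 kb upstream (chr19:55896493-55897900) stood at 45 and 39.3% in D4 soft and at 10.9 and 12.9% in D4 stiff, with a rank score of 1.02 ± 0.47 (limma, adjusted p = 0.92).

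LIF had the most sites of the 10 genes, 15, of which 12 were distal, and its own promoter was in the fewest lists. The LIF promoter site had a peak in both D4 stiff libraries, at 84.7 and 83.2%, and in D2 stiff replicate 2 at 90.4%, with 17, 12 and 10 fragments at the summit. It had none in the 4 soft libraries or in D2 stiff replicate 1. All 3 peaks stood near the end of their lists, and in the shortened lists no library had one. The strongest LIF site with a peak in every library, 50.6 kb downstream of the start (chr22:30591359-30593010), stood at 5.82 and 12.9% on soft against 18.4 and 9.27% on stiff on day 2, and at 3.11 and 17.4% against 9.15 and 6.8% on day 4. Soft and stiff overlapped there on both days. The distal site 10.8 kb downstream of the LIF start (chr22:30631618-30632183) had a peak in every library, at 92.2 and 89% in D2 soft, 67.3 and 97% in D4 soft, 39.6 and 38.2% in D2 stiff, and 44 and 39.7% in D4 stiff. Each stiff library stood higher than each soft library in percent of its list. By the plain rank of the peak this was not so, since D2 soft replicate 1, the shortest list, had it at rank 27454.5 and the D4 stiff libraries at 28986 and 28895. The summits held 15, 19, 24 and 22 fragments on stiff against 4, 8, 10 and 6 on soft, D2 before D4, as raw counts not scaled to depth. In the same order, the estimated fragment density was 2.32, 2.19, 3.15 and 2.87 per kb on stiff against 0.78, 2.08, 2.69 and 2.72 on soft. Of the 25 sites it was the 1 site ordered this way, against 5.45% of all such sites, so the share among the cytokine sites was near the background. The rank score was higher on stiff by 1.76 ± 0.51 on day 2 and by 1.43 ± 0.51 on day 4, which did not pass the adjusted threshold (limma, adjusted p = 0.47 and 0.92).

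The IL1B promoter site (chr2:113594054-113594940) stood at 56.5 and 60.5% on soft against 45.1 and 36.9% on stiff on day 2, and at 42.4 and 43.6% against 34.1 and 37.7% on day 4. Both stiff libraries stood above both soft libraries on each day in percent of their lists, but by plain rank D2 soft replicate 1 (16826) stood above D2 stiff (26724 and 23471). The share of all sites with this order was not counted. The ranges of the matrices also met in percent, with 45.1% in D2 stiff replicate 1 against 42.4% in D4 soft replicate 1. The rank score of fold enrichment did not follow this order on day 4, with differences of 0.17 ± 0.48 on day 2 and -0.24 ± 0.48 on day 4 (limma, adjusted p = 0.96 and 0.99). A distal site 24.5 kb downstream of the start (chr2:113569304-113570345) was the strongest of the window in every list, at 15.9 and 3.59% on soft against 5.42 and 7.93% on stiff on day 2, and at 2.17 and 4.65% against 2.07 and 2.31% on day 4. The IL1B window had 10 distal sites, and its 5 sites with a peak in every library were the most of the 10 genes.

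**Figure D2:**
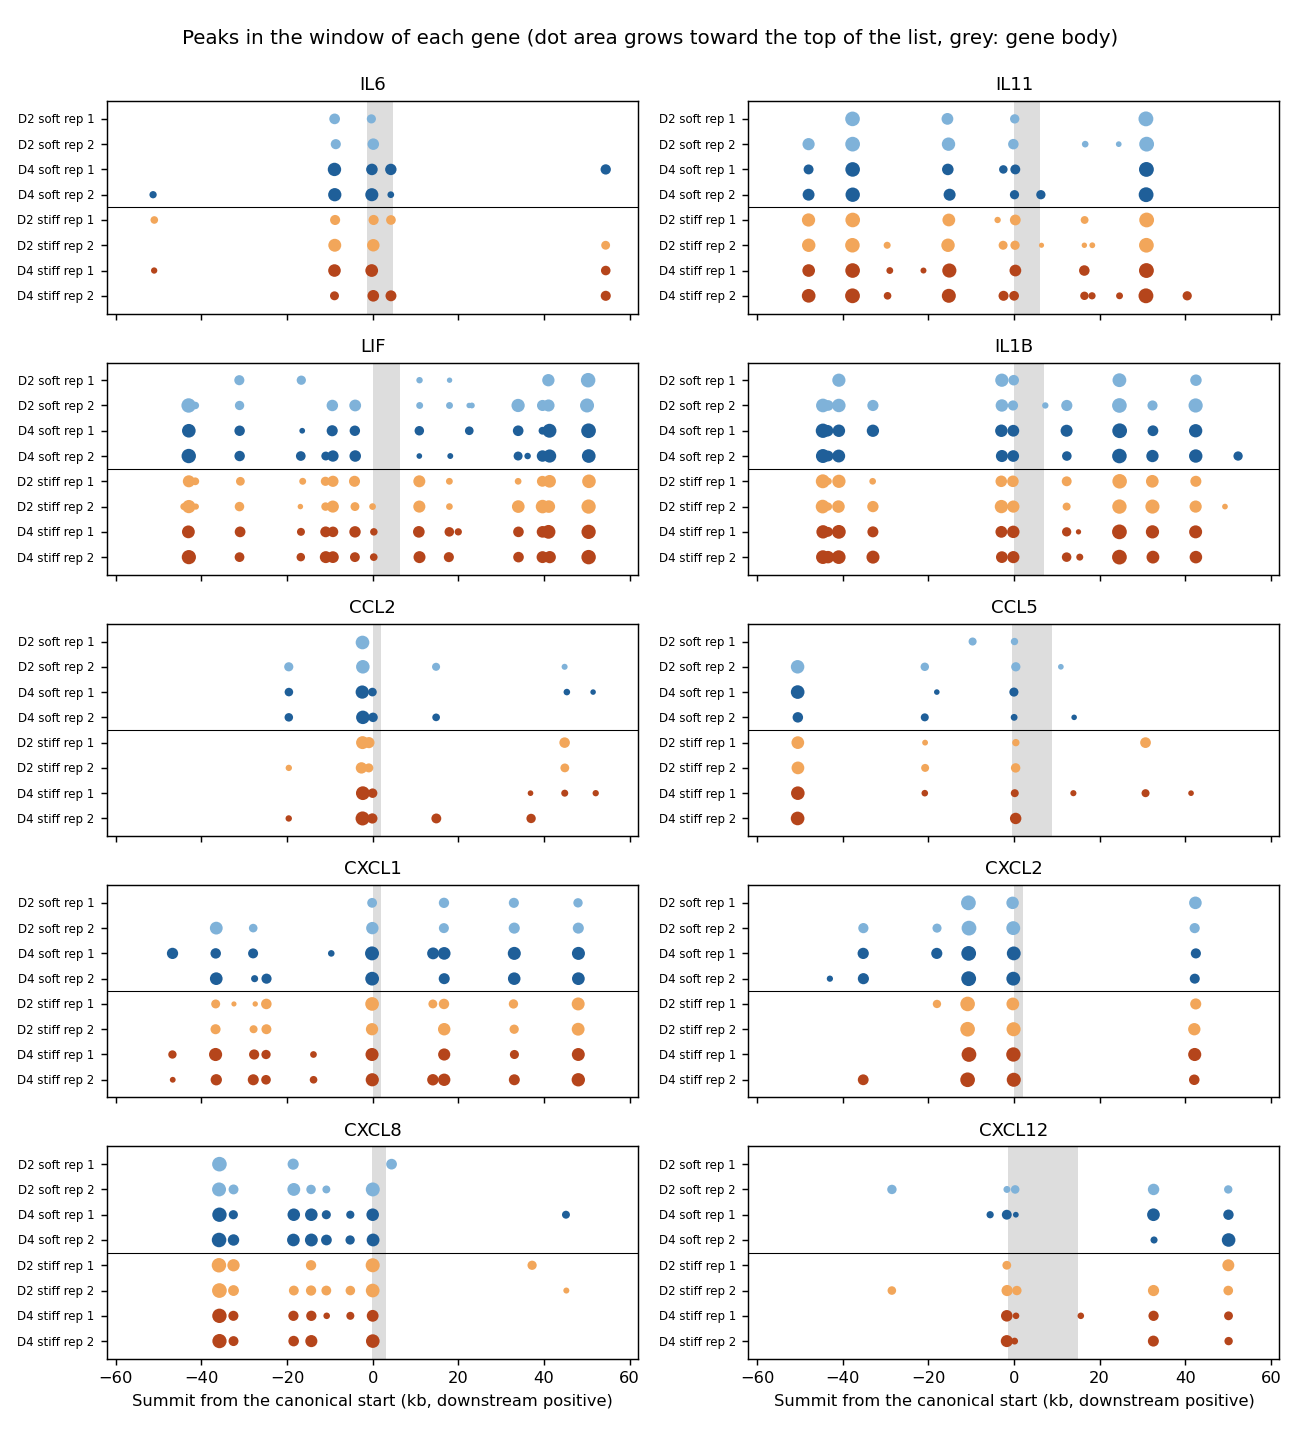
Peaks of each library in the window of each gene, by the distance of the summit from the canonical start in kb (downstream positive), with soft libraries above the line and stiff libraries below it. Larger dots stand nearer the top of the list, the grey band is the gene body, and the row of D2 soft replicate 1 is the sparsest, with 30 peaks in all windows against 62 to 70 in the other 7 libraries.

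The windows held 491 peaks in all, 11 of the 81 sites were promoter sites of the gene itself, 12 were promoters of other protein-coding genes and 58 were distal. The median gene of the group had 7 sites, against 6 for all protein-coding genes (quartiles 3 and 9). The LIF window had 11 ± 3.56 peaks on soft and 14 ± 0.816 on stiff (mean ± SD, n = 4 libraries each). The IL1B window had 9 ± 2.71 on soft and 11 ± 0 on stiff, where each stiff library had 11 peaks. The IL11 window had 5.75 ± 1.26 on soft and 9 ± 1.83 on stiff and the CXCL1 window 6.5 ± 2.08 on soft and 8.75 ± 1.26 on stiff, whereas the CXCL2 window had 4.5 ± 1 on soft and 3.5 ± 0.577 on stiff. CXCL2 was the 1 gene with a lower mean on stiff. No gene had more peaks in each stiff than in each soft library, an order that 5.07% of protein-coding genes had. The median difference of stiff minus soft means was 1.25 peaks for the 10 genes and 1 for all protein-coding genes.

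**Figure D3:**
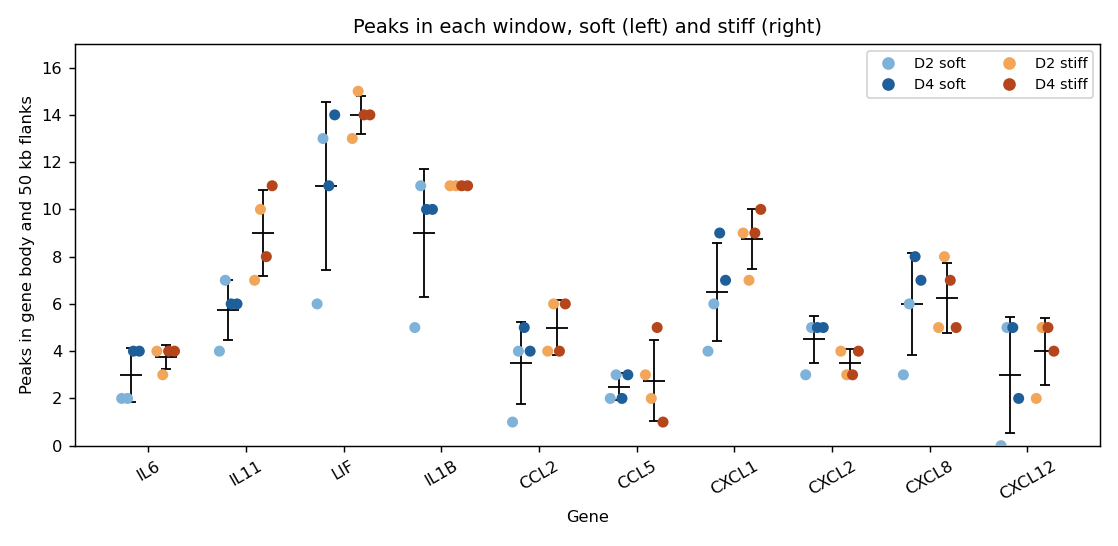
Number of peaks in the gene body and 50 kb flanks of each gene, one point per library, with soft libraries left and stiff libraries right, and the mean and SD of each set of 4 in black. The lowest soft point is D2 soft replicate 1 for all genes or tied with it, and soft and stiff points overlap or touch for every gene.

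Of the 81 sites, 25 had a peak in every library (32.1% of all sites in the genome did) and 17 lacked one in D2 soft replicate 1 alone (15%). Both D2 stiff libraries and neither D2 soft library had a peak at 3 sites, against 7.45% of all sites. They were the CCL2 promoter, a site in an intron of CXCL6 25.1 kb upstream of CXCL1 (chr4:74709285-74710645) and a site 10.9 kb upstream of LIF. The LIF site stood at 70.1 and 76.4% in D2 stiff and at 53.1% in D4 stiff replicate 1, higher in the list in replicate 2, and had a peak in 1 soft library, D4 soft replicate 2, at 73%. The CXCL1 site had 56.5 and 62.6% in D2 stiff, 69.2 and 66% in D4 stiff and 60.7% in D4 soft replicate 2. The opposite pattern on day 2 had 0 sites, against 0.391%.

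Both D4 stiff libraries and neither D4 soft library had a peak at 6 sites, against 6.72% of all sites, and the reverse pattern had 0, against 1.31%. The 6 were the LIF promoter, a site 15.3 kb downstream of the IL1B start (chr2:113578866-113579285), a site 13.8 kb upstream of CXCL1 (chr4:74721033-74721509), a site 36.9 kb downstream of CCL2 (chr17:32619012-32619340), and 2 sites of the IL11 window, at COX6B2 (chr19:55865134-55865618) and in an intron of RPL28 (chr19:55910390-55911830). The IL1B, CXCL1 and CCL2 sites had peaks in the 2 D4 stiff libraries alone, all of them with 6 to 10 fragments at the summit. Of the 9 sites found on stiff alone on either day, 4 held the AP-1 word and 2 the TEAD word near the summit, where 30.3 and 22.6% of the 10062 such sites in the genome did. A site with a peak in all 4 stiff and in no soft library was not found (0 against 0.85%), nor one in all soft and no stiff library (0 against 0.0172%).

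Over time on soft, 3 sites had a peak in both D4 and in neither D2 library, against 5.79% of all sites. They were the CCL2 promoter, the IL6 gene body site and a site 5.29 kb upstream of CXCL8 (chr4:74600632-74601360), and 0 sites had the reverse, against 0.403%. On stiff, 4 sites were in D4 alone, against 5.35%, namely the IL1B, CXCL1 and CCL2 sites above and a site 46.6 kb upstream of CXCL1 (chr4:74688250-74688816). The reverse was seen at 1 site, at CASTOR1 in the LIF window (chr22:30683963-30684229), against 1.41%. All of these shares were near or below the background, and with 2 libraries against 2 an exact permutation test cannot go below p = 0.333, so none was tested.

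These counts rested on single libraries. With a library left out, the share of all sites was not counted, so the counts without a library have no background. Without D2 soft replicate 2 the sites of D2 stiff alone numbered 26 and those of D4 soft alone over D2 soft 24, without D2 stiff replicate 1 or 2 the D2 stiff count was 12 or 7, and without D4 soft replicate 1 or 2 the D4 stiff count was 11 or 9 and that of D4 soft alone over D2 soft 8 in both cases. The sites of D4 stiff alone over D2 stiff numbered 10 without D2 stiff replicate 2 and 2 without D4 stiff replicate 2. Those of D4 soft alone over D4 stiff numbered 2 or 3 without D4 stiff replicate 1 or 2, and 1 or 3 without D4 soft replicate 1 or 2. Sites of all stiff and no soft libraries numbered 1 without D2 soft replicate 2 and 2 without D2 stiff replicate 1 or without D4 soft replicate 2. Without D2 soft replicate 1, 4 sites were found on D2 stiff alone and 4 on D2 soft alone. In lists of equal length, 43 cytokine sites were left, of which 1 was in D2 stiff alone (background 4.06%), 2 in D2 soft alone (3.24%), 2 in D4 stiff alone (3%) and 2 in D4 soft alone (2.82%). The count on stiff alone was then no higher than that on soft alone on either day. Shortening removes the weakest peaks of each longer list by construction. None of the 9 sites found on stiff alone in the full lists was among the stiff sites counted here. The part of depth in these counts was not tested. The 2 soft sites were the same on both days, 18.6 kb upstream of CXCL8 and 33 kb downstream of CXCL1, and were thus in all soft and no stiff lists, as were 0.167% of all sites, against 0.282% in all stiff and no soft lists, of which the cytokine windows held 0. The 2 D4 stiff sites were the upstream CXCL12 promoter and the LIF site 10.8 kb downstream of the start.

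Strength was tested where all 8 libraries had a peak, with fold enrichment turned into normal scores of its rank within each library. None of the 25 passed an adjusted p of 0.05 in limma between stiff and soft on day 2 (0.00412% of all sites did) or on day 4 (0.00825%), between D4 and D2 on soft (0%) or on stiff (0%), or in the interaction of stiffness and day (0%). These background counts rested on single libraries. Without D2 soft replicate 2, 296 sites in the genome passed for day 2, 6 for day 4 and 222 for time on soft, and 0 cytokine sites did. Before adjustment, p was under 0.05 at 4 sites for day 2, 4 for day 4, 1 for time on soft, 0 for time on stiff and 0 for the interaction, where 7.65, 5.35, 7.07, 5.04 and 5.27% of all sites were. The day 2 sites were those of LIF, CCL2, CXCL1 (48 kb downstream, 1.07 ± 0.47) and IL1B (42.6 kb downstream, -1.09 ± 0.5), 2 in each direction, and the day 4 sites were also 2 in each direction. The score was higher on stiff at 7 of 25 sites on day 2 and at 10 of 25 on day 4, with medians of -0.37 and -0.24 against -0.02 and -0.02 over all sites. The standard errors of these differences were 0.47 to 0.56 score units, with 2 libraries a group.

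**Figure D4:**
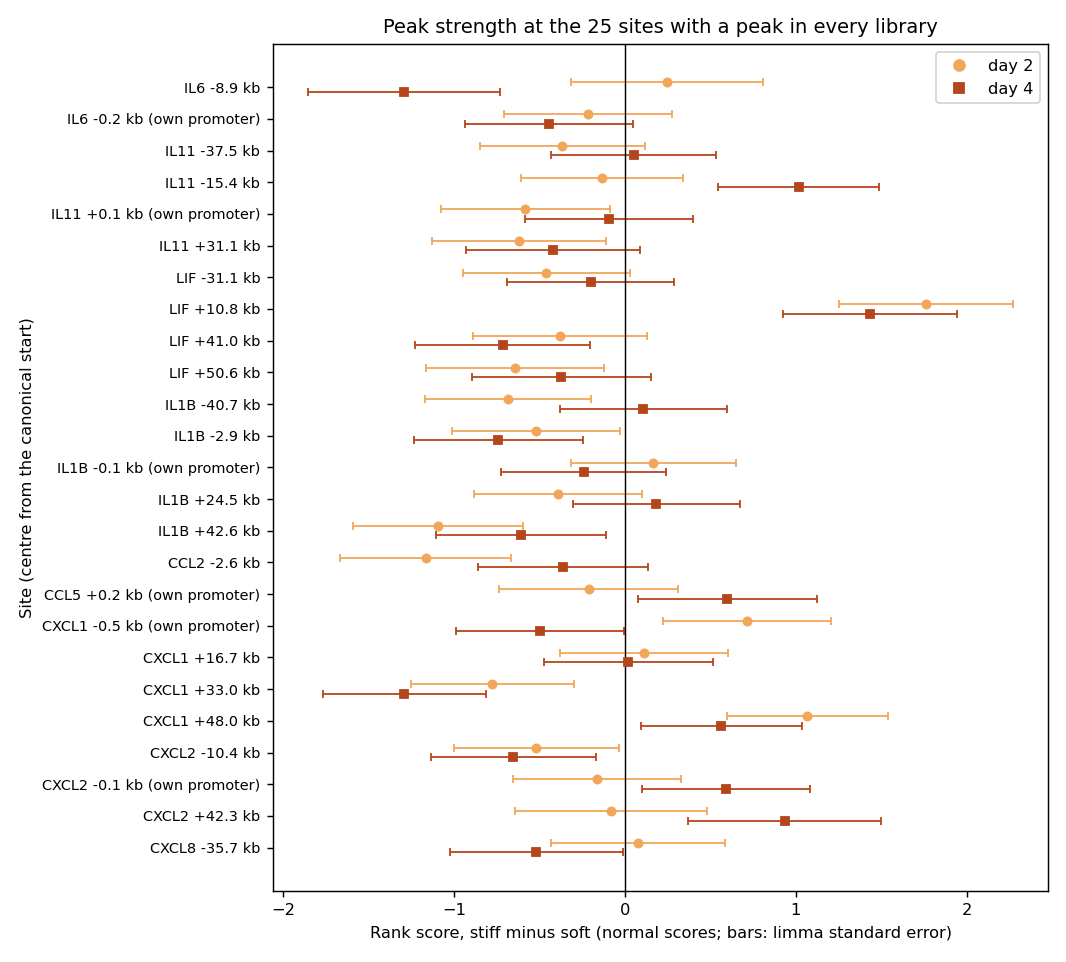
Difference of the rank score, stiff minus soft, with limma's standard error, on day 2 (circles) and day 4 (squares) at the 25 tested sites. The LIF site 10.8 kb downstream lies farthest to the right on both days, at 1.76 and 1.43, while the 6 own promoters shown lie between -0.58 and 0.72.

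The receptors and regulators of these cytokines were examined by promoter peak alone, in lists chosen for their role. Of 13 receptor genes, 7 had a promoter peak in every library, namely IL6R, IL6ST (gp130), IL11RA, LIFR, OSMR, IL1R1 and IL1RAP. The leukocyte chemokine receptors CCR1, CCR2, CXCR1 and CXCR2 had none in any library. Of the CXCL12 receptors, ACKR3 had one in 3 soft and 4 stiff libraries, and CXCR4 in 3 soft and 1 stiff. Of 12 regulators, 6 had a peak in every library, and the other 6 had more stiff than soft libraries with a peak, among them NFKB1, NFKBIA and RELB (4 stiff, 3 soft) and SOCS3, a feedback inhibitor of gp130 signalling (4 stiff, 2 soft). Of 18 other cytokine and inflammatory genes, 4 (CXCL3, CXCL5, CSF2 and PTGS2) had one in every library, 9 in some and 5 (CCL8, CCL11, CCL20, OSM and TNF) in none. Among the 9, CSF1 had 3 soft and 4 stiff, CX3CL1 1 and 2, CXCL6 0 and 1, and CCL7 2 and 1. These counts stand against 47.5% of protein-coding genes with a peak in every library. D2 soft replicate 1, the least deep library, was the only library without a peak for ACKR3, NFKB1, RELB, NFKBIA and CSF1. SOCS3 lacked a peak there and in D4 soft replicate 2. The share of protein-coding genes with more stiff than soft libraries was not counted. Of all protein-coding genes, 49% had a promoter peak in D2 soft replicate 1 and 63.5 to 69.1% in the other libraries.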

How the data were processed

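The 8 libraries were ATAC-seq libraries of LX-2 cells, 2 in each of 4 groups taken from the sample titles. The authors trimmed reads with TrimGalore, mapped them to hg19 with Bowtie2 (version 2.4.1 per the submitters' processing notes, which also name bedtools 2.24.0 and Picard) and called peaks per library with MACS2 at a q of 0.05. Tn5 offsets, duplicate handling and caller options were not given in the sources used here. The deposited lists hold a score (10 times the −log10 q, not used), a fold enrichment ratio at the summit against the local background, the −log10 p-value and q-value, and the summit offset, an other column. The authors' DiffBind and DESeq2 comparison used reads, not used here.

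Peaks overlapping by at least 1 bp were merged over libraries, and regions of at least 2 libraries were kept as sites. A site within 1 kb of an annotated transcription start of a protein-coding gene was a promoter site. Sites near starts of other gene types alone counted as distal. The annotation was GENCODE 44 on GRCh37, with 220784 distinct starts. Peaks were ranked in each list by the −log10 p-value. Where all 8 libraries had a peak, fold enrichment was turned into normal scores of the within-library rank and fitted with limma 3.58.1 (R 4.3.3) over 4 group means, with Benjamini-Hochberg adjustment over 24246 sites. The fit was tested on simulated data. Fragment pileups were recovered from fold and p-value for 100% of peaks, within 0.001, and fragments per kb came from the lowest background of a list over its shortest peak, which compares libraries only under the caller's model.

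All 10 genes are named. In each window the named sites were the gene's own promoter, the best-ranked other site with a peak in every library, and any site that was in both libraries of a group and in neither of the group compared. Sites with a low unadjusted p, the LIF site 10.8 kb downstream among them, and those in lists of equal length, were named after their values were seen. The genes, gene lists and words were chosen with earlier results of these data known. A few listed genes and sequences are not reported here. Alternatives were a stricter q, lists of equal length, other windows, promoter distances, merging rules and ranks, leaving out each library, the 2 compared groups alone and a replicate block.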

Additional observations from a re-analysis of the deposited data

Results flagged for a closer look

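D2 soft replicate 1 had 30 peaks in the windows of the 10 genes, where the next lowest soft library had 62, a gap larger than Dixon's 95% critical value for 4 samples. Its whole list was the shortest, with 29789 peaks, and its share of peaks in the windows (0.101%) lay within the 0.0961 to 0.111% of all libraries. D2 stiff replicate 1 stood out among the stiff libraries, with 62 peaks against 70 in each of the other 3. The CXCL2 promoter peak stood at 33.7% of the list in D2 soft replicate 1, against at most 15.3% in the other soft libraries. Among the stiff libraries, examined as a separate set, D2 stiff replicate 1 stood nearly as low there. In all, 3 values were flagged in 16 sets of 4 libraries examined, where chance flags about 1 set in 20. The part of depth in these values was not tested.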

How the results depend on the processing

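Among the counts of sites and genes and the 5 rank comparisons, 168 results under an alternative stayed within 1.5 times of the reported value and 41 did not. A stricter q of 0.01, another promoter distance, the outermost start alone, summit merging and keeping regions of 1 library moved none of them by more. The window held 46 sites with 25 kb flanks and 127 with 100 kb, by construction. In lists of equal length it held 43, and 1 was in D2 stiff alone, 2 in D2 soft alone, 2 in D4 stiff alone, 2 in D4 soft alone, 1 in D4 soft over D2 soft, 1 in D4 stiff over D2 stiff and 2 in all soft lists with no stiff, and 2 genes had a promoter peak in every list. With a peak in 1 library of a group enough, 15 sites were in D2 stiff alone, 4 in D2 soft alone, 4 in D4 soft over D4 stiff, 13 in D4 soft over D2 soft, 4 in D2 soft over D4 soft, 8 in D4 stiff over D2 stiff and 5 in D2 stiff over D4 stiff. For these site counts, the share of all sites was counted only in lists of equal length, and there only between soft and stiff. The cause of these moves was not tested, beyond the fewer peaks or the looser rule that the alternatives set.

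Leaving out each library in turn gave 3 to 26 sites for D2 stiff over D2 soft, 0 to 4 for the reverse, 4 to 11 for D4 stiff over D4 soft, 0 to 3 for the reverse, 3 to 24 for D4 soft over D2 soft, 0 to 4 for the reverse, 2 to 10 for D4 stiff over D2 stiff, 1 to 4 for the reverse and 0 to 2 for all stiff with no soft. A group with 1 library left counts that library alone, and the share of all sites was not counted under these settings. The largest counts came without D2 soft replicate 2, which leaves the least deep library as the D2 soft group.

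Of 12 promoter rank differences, with 148 values under alternatives, 7 changed sign, all from values within 1 SE of 0 apart from CCL5 on day 4, and the lowest adjusted p in limma was 0.39. The IL11 day 4 difference was 0.12 by the −log10 p ranks. Without one library the day 2 difference ranged from -0.26 to 0.56 for IL1B, -0.66 to 0.33 for CXCL2, -0.49 to 0.067 for IL6 and -0.61 to 0.19 for CCL5, and the day 4 difference from -0.083 to 1.28 for CCL5 and -0.41 to 0.22 for IL11. With the replicate block 0 of the 25 sites passed in each of the 5 comparisons, as without it, and the same held for a block by the number in the peak names, which was added after seeing the data. Same-numbered libraries did not deviate together (correlations of -0.04 to 0.08), so the numbers were not taken as pairs.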

Other observations

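The sites of LIF included 1 in an exon of the neighbouring gene OSM (chr22:30658986-30659731), a gp130 cytokine whose own promoter had no peak in any library. This site had a peak in 7 libraries, at 69.5% of the list in D2 soft replicate 1 and 88.9 and 97.9% on stiff on day 2. On day 4 it stood at 96.5 and 65.2% on soft against 80.7 and 76.3% on stiff. The CCL2 window held the promoter of CCL7, another monocyte chemokine (chr17:32596894-32597465), with a peak in 2 soft libraries and 1 stiff library, at 80.0, 83.0 and 63.2%. The CXCL3 promoter, 84.7% identical to that of CXCL1 over 300 bases, had a peak in every library, and it shared a run of 178 bases with the CXCL2 promoter.

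Of 5 libraries, the replicate number inside the peak names differed from that of the sample title, as in D2 stiff, where replicates 1 and 2 of the titles were 2 and 3 in the peak names. The titles were used throughout.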
